A study of Mus musculus with 6 samples.

Results

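Immediate early genes are transcribed within minutes of a stimulus, without new protein synthesis, and most of their transcripts are short-lived. Growth factors, stress and feeding signals reach them through MAP kinases and through CREB and serum response factor bound at their promoters. Many of their products are transcription factors, while others, such as Dusp1, switch the signal off again. Ifrd1 itself was first isolated as an early transcript, TIS7, in a screen that also gave Fos, Egr1 and Btg2. In the intestine these genes respond to nutrients and injury and also to the handling of tissue.

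The members described here are Fos, Fosb, Jun, Junb, Egr1, Atf3, Ier2, Ier3, Dusp1 and Btg2, chosen as the probe sets whose platform annotation names 1 of these 10 genes and no other. They are 12 of the 45101 probe sets on the array, with 2 each for Jun and Btg2 and 1 for each other gene. The double knockout group (dKO) holds 3 male mice without TIS7 (Ifrd1) and SKMc15 (Ifrd2), and the wild type group (WT) holds 3 male mice. All 6 mice had a C57BL/6 background, were 7 to 10 weeks old, lived in single cages and ate a high saturated fat diet with 42% of energy from milk fat and 0.2% from cholesterol. Whole jejunum, a stretch of small intestine that absorbs most nutrients, was collected after 3 weeks of feeding per the labels' extraction protocol, while their growth protocol gives 3 up to 8 weeks on the diet, and its RNA was put on 1 Affymetrix mouse array per animal. The extent of each deletion, in the gene and across tissues, is not given in the labels. They also do not give the time of day or the feeding state at harvest.

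Values are the authors' log2 expression levels, and array medians lay between 2.88 and 2.89 in dKO and between 2.87 and 2.90 in WT. Probe sets above 4 in 3 or more mice were tested, which kept 18013. The targeted genes checked the labels: Ifrd2 averaged 2.66 ± 0.08 in dKO and 8.38 ± 0.21 in WT, and Ifrd1 averaged 5.30 ± 0.83 in dKO and 9.92 ± 0.08 in WT (SD, n = 3 each). Ifrd2 was therefore at least 20.8-fold lower (limma adjusted p = 2.37e-05), its dKO values being set to 4, and Ifrd1 fell by 4.61 on the log2 scale (SE 0.38, limma adjusted p = 0.00894). By mouse, Ifrd1 was at 6.27, 4.80 and 4.85 in dKO mice 1, 2 and 3. The 9 measured enterocyte markers averaged 13.36 to 13.44 in dKO and 13.48 to 13.53 in WT, and the 5 neutrophil markers on the array stayed under the minimum of 4. So did Alb, Cpa1 and Prss2 of liver and pancreas, while the elastase Cela1 of the same list was at 7.42 to 7.75 in dKO and 6.87 to 7.18 in WT (limma adjusted p = 0.0506). In RNA from whole tissue, fewer cells of a type and less RNA per cell cannot be told apart.

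No immediate early gene passed the test between dKO and WT jejunum. Of 11 member probe sets bright enough to test, covering 9 genes, 0 were higher and 0 lower in dKO by limma with the adjusted p held to 0.05. Of all tested probe sets, 4.47% passed, 2.54% higher and 1.93% lower in dKO. At an unadjusted p under 0.05 there were 2, Ier3 and Egr1, where 27.1% of all tested probe sets reached that level. The groups did not overlap for 1 of the 11, Ier3, while 34.3% of all tested probe sets had groups that did not overlap, 19.5% higher and 14.8% lower in dKO. The median log2 fold change of the members was -0.05, beside 0.03 over all tested probe sets. The dKO mice differed among themselves: Jun, Fos, Btg2 and Dusp1 were low in dKO mouse 1, and Btg2, Dusp1 and Atf3 were high in dKO mouse 3.

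**Figure D1:**
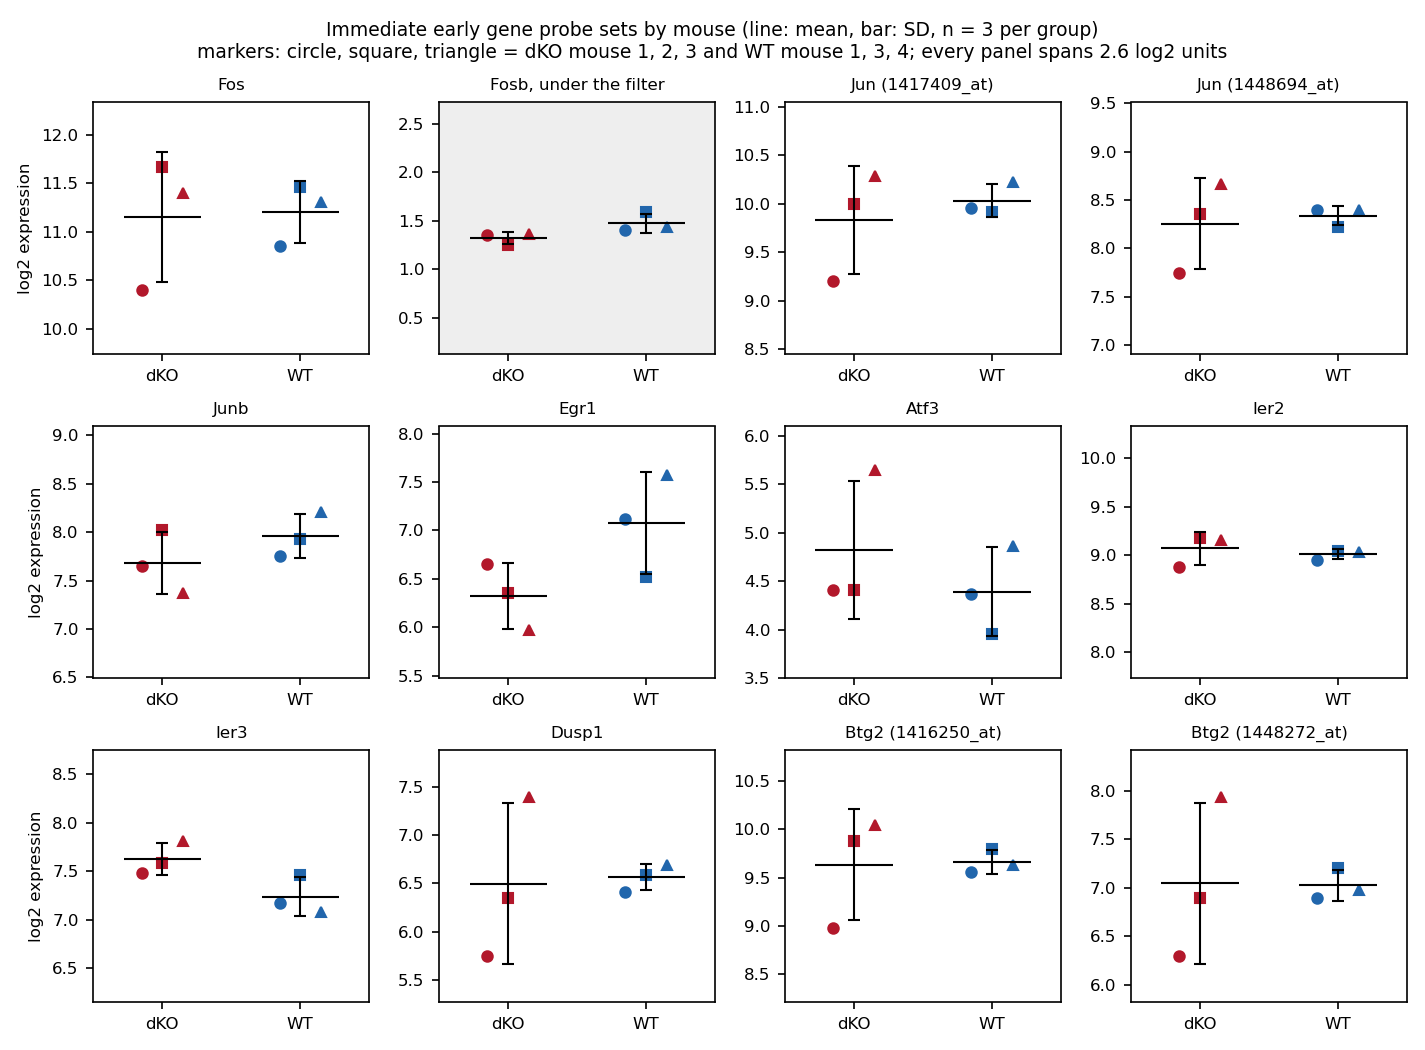
Log2 expression of the 12 member probe sets (vertical axes, all with the same span) in 3 dKO mice, left, and 3 WT mice, right; each point is 1 mouse, lines are means and bars are SD. In the panels of Jun, Dusp1 and Btg2 the dKO mice spread widely around WT mice that lie close together, and the groups overlap in every tested panel except that of Ier3.

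The Fos and Jun proteins pair through leucine zippers to form AP-1, a dimer that binds promoters and enhancers of growth and stress genes. Fos, the founding member, had 10.40, 11.67 and 11.40 in dKO mice 1, 2 and 3, against 10.85, 11.47 and 11.31 in WT mice 1, 3 and 4. The dKO mice thus held both the lowest and the highest value of all 6. The log2 fold change was -0.05 ± 0.34 (SE, limma adjusted p = 0.937), and the 95% interval of the fold ran from 0.55 to 1.69.

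Jun, the partner of Fos in AP-1, was read by a pair of probe sets. The brighter probe set gave 9.21, 10.00 and 10.29 in dKO mice 1, 2 and 3, against 9.96, 9.91 and 10.23 in WT mice 1, 3 and 4. The dimmer probe set gave 7.75, 8.35 and 8.67 in the dKO mice, against 8.39, 8.22 and 8.40 in the WT mice. Both probe sets put dKO mouse 1 lowest and dKO mouse 3 highest of all 6 mice. Their log2 fold changes were -0.20 ± 0.27 and -0.08 ± 0.23 (SE, limma adjusted p = 0.660 and 0.835). Junb, a relative of Jun that also dimerises with Fos, did not follow this order. It had 7.65, 8.02 and 7.38 in dKO mice 1, 2 and 3, against 7.76, 7.93 and 8.20 in WT mice 1, 3 and 4, so that dKO mouse 3 was the lowest of all. Its fold change was -0.28 ± 0.19 on the log2 scale (SE, limma adjusted p = 0.379). It was -0.03 with the 3′ to 5′ covariate, -0.13 without dKO mouse 3 and -0.45 without dKO mouse 2. Fosb, a relative of Fos, was not well above background: its 6 values lay between 1.25 and 1.37 in dKO and between 1.41 and 1.59 in WT. No fold is given for it, since all 6 values are under the minimum of 4.

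Egr1, a zinc finger transcription factor that growth factors induce, had the largest difference of the members, and it did not pass. Its values were 6.65, 6.36 and 5.97 in dKO mice 1, 2 and 3, against 7.12, 6.52 and 7.57 in WT mice 1, 3 and 4. WT mouse 3 lay below dKO mouse 1, so the groups overlapped. The log2 fold change was -0.75 ± 0.29 (SE, unadjusted p = 0.0385 and adjusted p = 0.162 by limma), with a 95% interval from -1.44 to -0.05. Leaving out 1 mouse at a time gave log2 fold changes between -1.02 and -0.49, and with the 3′ to 5′ difference of each array as a covariate it was -0.46 (limma adjusted p = 0.594). Atf3, a stress-induced factor of the ATF family, was near the minimum in most mice. It had 4.41, 4.41 and 5.64 in dKO mice 1, 2 and 3, against 4.36, 3.95 and 4.86 in WT mice 1, 3 and 4. Only dKO mouse 3 stood above the WT range. The log2 fold change of Atf3 was 0.43 ± 0.39 (SE, limma adjusted p = 0.507), and without dKO mouse 3 it was 0.02.

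Ier3, a stress-induced regulator of cell survival, was the only tested member whose groups did not overlap. It had 7.49, 7.58 and 7.81 in dKO mice 1, 2 and 3, against 7.17, 7.46 and 7.08 in WT mice 1, 3 and 4. The closest mice of the groups, dKO mouse 1 and WT mouse 3, had nearly the same value. The log2 fold change was 0.39 ± 0.14 (SE, unadjusted p = 0.0271 and adjusted p = 0.138 by limma), which is a 1.31-fold difference with a 95% interval of 1.04 to 1.64. With the 3′ to 5′ covariate the log2 fold change of Ier3 was 0.24 (limma adjusted p = 0.536). Ier2, a nuclear protein of the early response, varied least of the members between mice. It had 8.88, 9.18 and 9.16 in dKO mice 1, 2 and 3, against 8.95, 9.05 and 9.03 in WT mice 1, 3 and 4. Its log2 fold change was 0.06 ± 0.11 (SE, limma adjusted p = 0.730), and the 95% interval of the fold, 0.87 to 1.25, was the narrowest among the members.

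Dusp1 and Btg2 act as brakes. Dusp1 is a phosphatase that inactivates MAP kinases, and Btg2 (TIS21) is an antiproliferative protein that also promotes removal of the poly(A) tail of mRNA. Dusp1 had 5.75, 6.35 and 7.40 in dKO mice 1, 2 and 3, against 6.42, 6.59 and 6.69 in WT mice 1, 3 and 4. The dKO values spanned 1.65 on the log2 scale and the WT values 0.27, and dKO mice were both lowest and highest of the 6. Its log2 fold change was -0.07 ± 0.38 (SE, limma adjusted p = 0.928). Btg2 had 8.98, 9.87 and 10.04 in dKO mice 1, 2 and 3 on its brighter probe set, against 9.55, 9.80 and 9.63 in WT mice 1, 3 and 4. The dimmer Btg2 probe set had 6.30, 6.90 and 7.94 in the dKO mice, against 6.89, 7.20 and 6.98 in the WT mice. Both ordered the dKO mice as Dusp1 did, with mouse 1 lowest and mouse 3 highest. The Btg2 log2 fold changes were -0.03 ± 0.27 and 0.02 ± 0.38 (SE, limma adjusted p = 0.953 and 0.979).

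**Figure D2:**
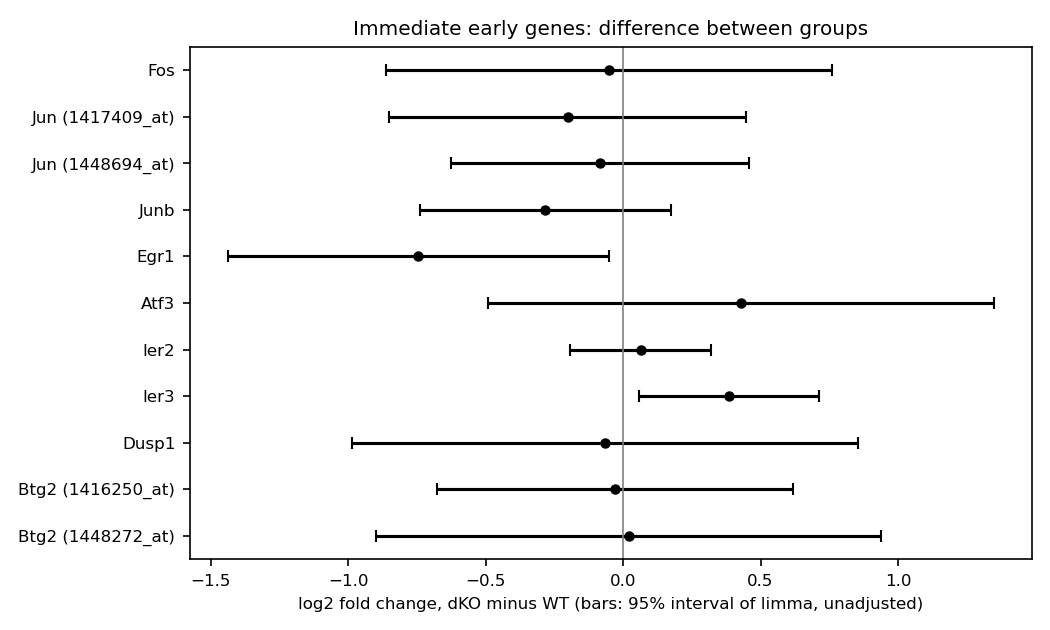
Log2 fold changes, dKO minus WT (horizontal axis), of the 11 tested member probe sets (rows); points are limma estimates and bars their 95% intervals before any adjustment. The intervals of Egr1, from -1.44 to -0.05, and of Ier3, from 0.06 to 0.71, leave out 0, and neither passed after adjustment.

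The difference between groups was small for Fos, Jun, Dusp1 and Btg2, but so was the precision. Of the 11 tested member probe sets, 9 had a 95% interval that lay within 1 log2 unit of 0 on both sides, and Egr1 and Atf3 did not. The means of Jun, Dusp1 and Btg2 also rested on dKO mice 1 and 3, which lay on opposite sides of WT. For Fos, dKO mouse 1 lay below and dKO mouse 2 above the WT values, and dKO mouse 3 lay among them. Without dKO mouse 1 the log2 fold changes were 0.33 for Fos, 0.11 and 0.17 for the Jun probe sets, 0.31 for Dusp1 and 0.30 and 0.39 for the Btg2 probe sets. Without dKO mouse 3 they were -0.17 for Fos, -0.43 and -0.29 for Jun, -0.51 for Dusp1 and -0.23 and -0.43 for Btg2. Without dKO mouse 2 Fos was at -0.31. None of these fits called a member (lowest limma adjusted p over all alternatives 0.0922, for Egr1).

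The spread of the members within groups was wide beside that of other transcripts. The median residual SD, the spread within groups pooled over both, was 0.41 for the 11 member probe sets and 0.15 for all tested probe sets on the log2 scale. For 7 of the 11 it lay above the 90th percentile of all tested probe sets: Fos, Dusp1, Atf3, Egr1, both Btg2 probe sets and the brighter Jun probe set. The SD was larger in dKO than in WT for 9 of 11 member probe sets, against 56.0% of all tested probe sets, and the median ratio of dKO SD to WT SD was 3.24 for the members and 1.13 for all tested. Egr1 and Ier3 were the members with the larger SD in WT. The spreads rest on 3 mice per group, member probe sets share mice and 2 genes count double, so no test of them was made.

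Within dKO, the order of the mice was shared by several members. Mouse 1 was lowest and mouse 3 highest for 6 of 11 member probe sets, which are both probe sets of Jun and of Btg2, Dusp1 and Ier3, where 15.6% of all tested probe sets had that order. Counted by gene on the brightest probe set, it held for 4 of 9 members, against 16.2% of all tested genes. Over all 6 mice, dKO mouse 1 was lowest for 7 of the 11 and dKO mouse 3 highest for 7, against 15.6% and 21.6% of all tested probe sets. Egr1 ran the other way, with dKO mouse 1 at -0.42, mouse 2 at -0.71 and mouse 3 at -1.10 from the WT mean on the log2 scale. Fos departed from the order in that dKO mouse 2 was highest, at 0.46 above the WT mean.

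**Figure D3:**
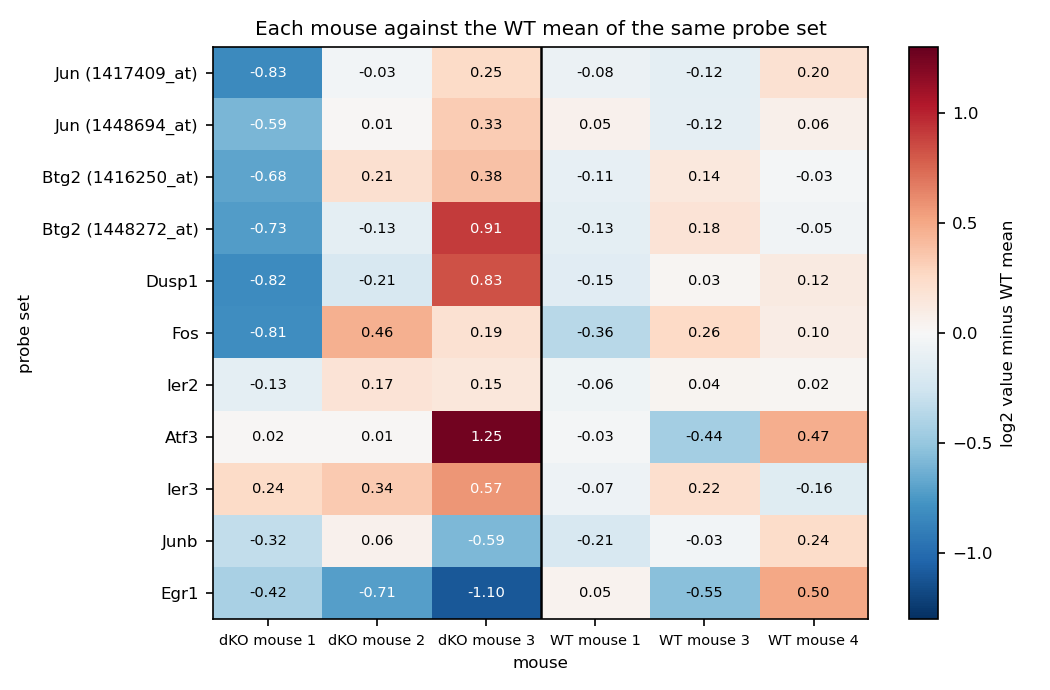
Log2 value minus the WT mean of the same probe set, for 11 member probe sets (rows) in each mouse (columns, 3 dKO mice left of the line and 3 WT mice right of it); red is above and blue below the WT mean. In dKO mouse 1 the values of Jun, Btg2, Dusp1 and Fos lie between -0.83 and -0.59, and in dKO mouse 3 Egr1 is at -1.10 while Atf3 is at 1.25.

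Other measures of the same arrays were set beside this order, and their part in it was not tested. The difference between the 3′ and 5′ ends of the Gapdh and Actb control transcripts, a sign of RNA quality, was 0.60, 0.41 and 0.61 in dKO mice 1, 2 and 3, against 0.35, 0.49 and 0.36 in WT mice 1, 3 and 4. It was higher in dKO mice 1 and 3 than in the other 4 mice. The 8 crypt markers averaged 7.79, 8.12 and 8.20 in dKO mice 1, 2 and 3, against 7.77, 7.69 and 7.59 in WT mice 1, 3 and 4. Of these markers 1 passed, against 4.79% of all tested genes: Top2a, a topoisomerase of dividing cells, rose by 0.55 (SE 0.10, limma adjusted p = 0.0344). A dimmer Top2a probe set was at 0.10 (limma adjusted p = 0.565), with groups that overlapped. The 12 heat shock genes, which also respond to handling of tissue, averaged 9.77, 9.71 and 9.93 in dKO mice 1, 2 and 3, against 9.45, 9.65 and 9.65 in WT mice 1, 3 and 4. On their brightest probe sets 0 of the 12 passed and 5 had an unadjusted p under 0.05 by limma, against 4.79% and 28.0% of all tested genes. Their median log2 fold change was 0.20, and Hspd1 and Hsph1 stood at 0.46 ± 0.10 and 0.81 ± 0.19 (SE, limma adjusted p = 0.0572 and 0.0639). A dimmer probe set of the chaperone Hsp90aa1 rose by 0.43 (SE 0.08, limma adjusted p = 0.0428). It was the 1 call among 27 heat shock probe sets, against 4.47% of all tested probe sets. The brightest Hsp90aa1 probe set was at 0.30 (limma adjusted p = 0.138). Of the 12 genes 11 had a positive fold change, against 5625 of all 9674 tested genes. Dnajb1 was negative, at -0.27 (limma adjusted p = 0.221). Hspa1b and Hspb1 were at 0.01 and 0.11 (limma adjusted p = 0.972 and 0.745). The 4 measured B and plasma cell markers averaged 9.41, 7.91 and 7.85 in dKO mice 1, 2 and 3, against 9.08, 7.39 and 8.96 in WT mice 1, 3 and 4. By limma 0 were called and 1, Mzb1, had an unadjusted p under 0.05, against 4.79% and 28.0% of all tested genes. Among them Ms4a1, the B cell surface protein CD20, named after its values were seen, had 8.27, 2.58 and 1.90 in dKO mice 1, 2 and 3, against 7.44, 1.57 and 7.56 in WT mice 1, 3 and 4. It was thus high in dKO mouse 1 and in WT mice 1 and 4, and low in the other 3 mice. The swings of the marker mean came mostly from Ms4a1. Over the 6 mice Jchain lay between 12.63 and 13.01, Sdc1 between 8.69 and 9.02 and Mzb1 between 6.42 and 7.53. Mzb1 was at 0.65 ± 0.18 (SE, limma adjusted p = 0.0885), higher in every dKO mouse than in any WT mouse.

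Promoters of Fos, Jun, Dusp1 and Btg2, whose values lay farthest below the WT mean in dKO mouse 1, are shown with that of Junb, which was lowest in dKO mouse 3. Of the 10 members, 8 matched the RefSeq promoter table (build GRCm38.p6), which gives 250 bases before and 50 after a gene's start, 5′ to 3′ along the gene. Capitals mark TGACG on either strand, the core of the cAMP response element that CREB and ATF proteins bind, and TATAAA, the letters of a TATA box. The 8-base palindrome TGACGTCA, the full element, holds TGACG on each strand.
Fos (chr12:85473640-85473939, plus strand): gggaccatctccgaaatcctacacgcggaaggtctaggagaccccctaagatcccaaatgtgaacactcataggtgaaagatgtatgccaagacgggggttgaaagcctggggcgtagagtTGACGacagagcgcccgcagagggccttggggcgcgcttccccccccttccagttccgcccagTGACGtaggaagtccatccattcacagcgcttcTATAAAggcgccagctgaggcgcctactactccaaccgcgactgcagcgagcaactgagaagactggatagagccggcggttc
Jun (chr4:95052173-95052472, minus strand): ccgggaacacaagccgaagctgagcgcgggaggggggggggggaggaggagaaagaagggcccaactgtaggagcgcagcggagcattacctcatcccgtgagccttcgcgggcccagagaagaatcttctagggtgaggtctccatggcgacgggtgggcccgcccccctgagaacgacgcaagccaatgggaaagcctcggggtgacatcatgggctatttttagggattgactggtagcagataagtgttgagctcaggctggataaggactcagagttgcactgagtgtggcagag
Dusp1 (chr17:26508423-26508722, minus strand): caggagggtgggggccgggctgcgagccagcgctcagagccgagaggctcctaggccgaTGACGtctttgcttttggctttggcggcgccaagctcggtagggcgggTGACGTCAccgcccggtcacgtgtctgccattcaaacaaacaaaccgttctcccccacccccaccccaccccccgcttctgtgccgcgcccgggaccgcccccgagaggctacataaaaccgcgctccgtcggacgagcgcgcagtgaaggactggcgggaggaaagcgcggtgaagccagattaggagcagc
Btg2 (chr1:134079106-134079405, minus strand): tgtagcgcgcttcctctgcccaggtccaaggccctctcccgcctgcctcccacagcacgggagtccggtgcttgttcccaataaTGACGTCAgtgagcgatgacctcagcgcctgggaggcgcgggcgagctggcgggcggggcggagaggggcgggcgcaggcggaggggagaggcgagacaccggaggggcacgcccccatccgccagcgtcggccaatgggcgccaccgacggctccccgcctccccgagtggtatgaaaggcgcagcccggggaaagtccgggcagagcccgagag
Junb (chr8:84978699-84978998, minus strand): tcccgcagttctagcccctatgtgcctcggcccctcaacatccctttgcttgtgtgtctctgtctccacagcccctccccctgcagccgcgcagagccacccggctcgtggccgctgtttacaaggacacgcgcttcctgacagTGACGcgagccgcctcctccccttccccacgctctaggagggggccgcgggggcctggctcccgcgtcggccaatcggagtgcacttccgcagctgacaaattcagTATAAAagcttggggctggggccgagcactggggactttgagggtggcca

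The letters TGACG were found on either strand in 6 of 8 member promoters (Atf3, Btg2, Dusp1, Fos, Fosb and Junb) and in 20.8% of all 32851 promoters of the table. The full TGACGTCA was found in Btg2 and Dusp1, and in 1.79% of all promoters. In Fos, TGACG lay at -129 to -125 and at -66 to -62 from the start, ahead of TATAAA at -33 to -28. Neither motif was found in the Jun window, and Junb held TGACG at -106 to -102. Whether these motifs bear on the order of the dKO mice was not tested. TATAAA was found in Fos, in Junb at 1 to 6 after the start, and in 13.6% of all promoters. The AP-1 motif TGANTCA and the CArG box of serum response factor were found in 0 of the 8 windows, and in 7.81% and 1.63% of all promoters. These matches are letters in a short window and say nothing of whether a factor binds there. Only these exact letters were searched for, so a window without a match can still hold a variant of a site. Egr1 and Ier2 had no promoter in the table and were not searched. Bases beyond the windows were not searched either, so a window without a match does not show that a gene lacks the site.

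Genes that act with the members were read from 5 lists, of which 72 of 108 genes were measured. On the brightest probe set of each gene, 0 were higher and 0 lower in dKO by limma, against 4.79% of all 9674 tested genes, and 15 had an unadjusted p under 0.05, where 28.0% of all tested genes did. Their median log2 fold change was 0.05, the same as that of all tested genes to 2 decimals. Over all 126 tested probe sets of these genes 1 passed: Zfp36l1, an RNA-binding protein that destabilises AU-rich early transcripts, fell by 0.48 on its dimmer probe set (SE 0.08, limma adjusted p = 0.0344). That probe set had 7.01, 6.98 and 6.93 in dKO mice 1, 2 and 3, against 7.42, 7.40 and 7.56 in WT mice 1, 3 and 4, with no overlap. The brighter Zfp36l1 probe set was at -0.47 ± 0.13 (SE, limma adjusted p = 0.0788).

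**Figure D4:**
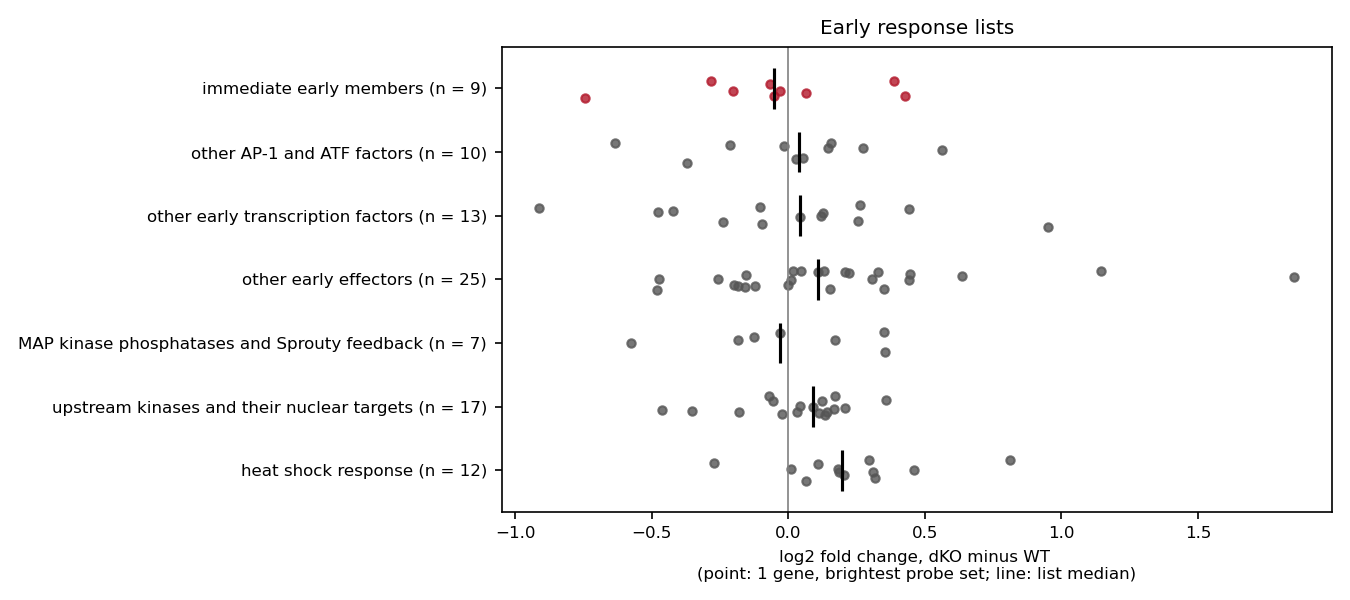
Log2 fold changes, dKO minus WT (horizontal axis), of the 9 measured immediate early genes, red, and of 6 further lists, grey; each point is a gene on its brightest probe set and each vertical line a list median. The medians lie between -0.05 and 0.20, and the point farthest right, at 1.85, is Gadd45g.

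Among 10 measured AP-1 and ATF relatives, the members with the smallest p were Jdp2, a repressor that pairs with Jun, at 0.56 ± 0.19, and Fosl2, another Fos relative, at -0.37 ± 0.12 (SE, limma adjusted p = 0.121 and 0.122). Fosl1, Batf, Batf3 and Atf7 stayed dim. Among 13 other early transcription factors, Cebpd, a C/EBP factor of the acute phase response, was at 0.95 ± 0.32 and Klf6, a Krüppel-like factor, at -0.48 ± 0.16 (SE, limma adjusted p = 0.126 and 0.130). All 5 tested Klf6 probe sets were lower in every dKO mouse than in any WT mouse, as were 14.8% of all tested probe sets. Their log2 fold changes lay between -0.81 and -0.41, and none passed (limma adjusted p from 0.0634 to 0.130). The 5 probe sets read 1 gene in the same mice, so they are not separate observations. The early receptors and zinc finger factors Nr4a1, Nr4a3, Egr2, Egr3 and Egr4 did not pass the filter on dim probe sets.

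Among 25 measured early effectors, Btg1, the closest relative of Btg2, was at -0.48 ± 0.11 (SE, limma adjusted p = 0.0632). It had 11.60, 11.61 and 11.30 in dKO mice 1, 2 and 3, against 12.04, 11.89 and 12.03 in WT mice 1, 3 and 4, so its groups did not overlap. Zfp36 (TIS11) and Ptgs2 (TIS10) are named because they came from the same screen as Ifrd1, not for their p. Zfp36, which promotes decay of AU-rich mRNA, was at 0.05 ± 0.23 (SE, limma adjusted p = 0.913). It had 9.83, 10.63 and 10.60 in dKO mice 1, 2 and 3, against 10.09, 10.36 and 10.46 in WT mice 1, 3 and 4, and thus shared the low value of dKO mouse 1. Ptgs2, the inducible cyclooxygenase, was dim at 3.57 to 4.39 in dKO and 4.07 to 4.30 in WT.

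The order of dKO mice seen in Jun, Btg2 and Dusp1 was also found in 11 of the 25 effectors and in 5 of the 13 other transcription factors, against 16.2% of all tested genes. It was found in 1 of 10 AP-1 and ATF relatives, 0 of 7 MAP kinase phosphatase and Sprouty genes and 2 of 17 upstream kinases and their nuclear targets. Outside the early response it was found in 5 of 8 crypt markers, 5 of 7 p53 targets and 3 of 12 heat shock genes. Gadd45g, a stress sensor of the Gadd45 family named here after its values were seen, had this order too. It had 5.21, 6.55 and 9.11 in dKO mice 1, 2 and 3, against 4.96, 5.43 and 4.93 in WT mice 1, 3 and 4. Its relative Gadd45b, also named after its values were seen, had 6.42, 7.01 and 8.49 in the dKO mice, against 6.39, 6.01 and 6.08 in the WT mice. Neither passed (log2 fold changes 1.85 ± 0.90 and 1.14 ± 0.49, SE, limma adjusted p = 0.235 and 0.192).

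The feedback and upstream lists had 0 calls by limma, with 3 of 7 and 2 of 17 genes at an unadjusted p under 0.05, against 4.79% called and 28.0% at that p among all tested genes. Spred1 and Spry2, inhibitors of the Ras to ERK pathway, were at 0.35 ± 0.11 and -0.58 ± 0.19 (SE, limma adjusted p = 0.105 and 0.121), 2 of 7 measured genes of their list. Rps6ka5, a kinase that acts on CREB and histone H3, and Srf, which binds CArG boxes, were at -0.46 ± 0.16 and 0.36 ± 0.13 (SE, limma adjusted p = 0.135 and 0.136) among 17 measured upstream genes. Srf had 7.36, 7.12 and 7.36 in dKO mice 1, 2 and 3, against 6.90, 7.11 and 6.76 in WT mice 1, 3 and 4, so dKO mouse 2 and WT mouse 3 were nearly level. A dimmer Srf probe set was at -0.02 ± 0.11 (SE, limma adjusted p = 0.92), with groups that overlapped.

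The genes whose values ran most like the mean of the 9 measured members over the 6 arrays were, by Pearson's r, Metrnl (0.99), Crb3 (0.99), Fam53b (0.96), Pck1 (0.96) and N4bp2l1 (0.95), taken as the highest of 6057 probe sets that varied at least as much as that mean. The member mean lay at -0.39, 0.06 and 0.24 in dKO mice 1, 2 and 3, against -0.08, -0.02 and 0.19 in WT mice 1, 3 and 4, each relative to the mean of all 6. Pck1, an enzyme of gluconeogenesis, had 5.02, 6.79 and 7.54 in the dKO mice, against 6.59, 6.72 and 6.99 in the WT mice. None of the 5 differed between groups by the test (limma adjusted p from 0.485 to 0.979). They were picked as the extremes of many over few arrays, so a high r is fixed by the choice.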

How the data were processed

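RNA from jejunum of 3 dKO and 3 WT mice was labelled from 500 ng per mouse and hybridised to 1 array each, per the labels. The deposited log2 values come from GCRMA 2.18.0, run by the authors according to the submitters' processing notes, with settings that those notes leave unstated here. The log2 scale was read from the values. GCRMA corrects each probe for a background modelled on its bases, so low levels carry little information. The number of arrays limits the precision.

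Probe sets were named from the platform annotation (34958 with 1 symbol, 932 with several, 9211 with none). After removal of 64 controls and the filter on dim probe sets, limma 3.58.1 (lmFit, eBayes; R 4.3.3) gave the difference dKO minus WT, two-sided, with Benjamini-Hochberg adjustment over 18013 probe sets. The fit was tested on simulated data. For lists, the brightest probe set of each gene was used. Alternatives changed the filter, normalization, floor, variance prior, array weights, covariates and mice. Members and lists were chosen with earlier results of these data known. Genes beyond the members were named by rule: the targeted genes, those with the smallest p in a list (up to 2 genes of any kind in stress and cell type lists), and those most like the member mean. Exceptions are marked. Figures were drawn with matplotlib 3.10.9.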

Additional observations from a re-analysis of the deposited data

How the results depend on the processing

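No member was called under any of the alternatives, and 144 of 164 recomputed fold changes of single member probe sets kept their sign. Over all tested probe sets, 458 were higher and 347 lower in dKO; the counts were 265 and 207 without the filter, 698 and 495 with a stricter filter, 968 and 762 with a trended robust variance prior, and 5 and 12 with the 3′ to 5′ covariate. Leaving out 1 mouse gave 11 to 196 higher and 21 to 239 lower, fewest without WT mouse 4. Of the genes on the 5 wider lists, 1 was higher and 2 lower with the robust prior, 1 was lower with the stricter filter and 1 with the mean of a gene's probe sets, and leaving out 1 mouse gave 0 to 1 higher and 0 to 1 lower.

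Signs turned for 20 of the recomputed fold changes, 11 of them on leaving out 1 mouse. The brighter Btg2 probe set was 0.0168 with array weights and 0.0653 with the covariate. The dimmer one was -0.0092 after quantile normalization, -0.0006 after median centring and -0.19 with the covariate. Without a change of sign, the covariate gave -0.04 for the brighter Jun probe set, -0.21 for Dusp1 and 0.12 for Ier2. With it Fos was 0.17 and the dimmer Jun probe set 0.0345, and Dusp1 was 0.0441 with array weights. Leaving out 1 mouse gave -0.31 to 0.33 for Fos, -0.43 to 0.11 and -0.29 to 0.17 for Jun, -0.23 to 0.30 and -0.43 to 0.39 for Btg2, and -0.51 to 0.31 for Dusp1. The cause was not tested. The mouse numbers share only a label, and numbers 1 and 3 occur in both groups (correlation of deviations 0.02 and 0.30): with the mouse number as a replicate block, 2 probe sets were higher and 11 lower, no member passed, and Dusp1 was at 0.0683. Atf3 has no value under the stricter filter, which removed it. Signal near background limits Atf3 and Fosb.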

Other observations

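Some p53 targets and integrated stress targets were read from the same arrays. Of 7 measured p53 targets 0 passed by limma, with 2 at an unadjusted p under 0.05, against 4.79% and 28.0% of all tested genes. Of the 7, 5 had a negative fold change and 2 a positive one. Cdkn1a, the cell cycle inhibitor p21, had 11.09, 11.09 and 11.37 in dKO mice 1, 2 and 3, against 10.84, 10.97 and 10.84 in WT mice 1, 3 and 4 (log2 fold change 0.30 ± 0.11, SE, limma adjusted p = 0.146). A dimmer Cdkn1a probe set was at 0.11 (limma adjusted p = 0.494), with groups that overlapped. Ccng1, the other gene with an unadjusted p under 0.05, was lower in dKO. It had 9.75, 9.77 and 9.91 in dKO mice 1, 2 and 3, against 10.02, 9.99 and 10.13 in WT mice 1, 3 and 4 (log2 fold change -0.24 ± 0.09, SE, limma adjusted p = 0.154). Of 8 measured integrated stress targets 0 passed, with 1 at an unadjusted p under 0.05, the lipoprotein receptor Vldlr. It had 5.69, 5.37 and 5.63 in dKO mice 1, 2 and 3, against 6.16, 6.09 and 5.66 in WT mice 1, 3 and 4 (log2 fold change -0.41 ± 0.16, SE, limma adjusted p = 0.165). The next by p was Trib3, a pseudokinase induced by amino acid and endoplasmic reticulum stress, which had 6.27, 6.89 and 7.15 in dKO mice 1, 2 and 3, against 7.08, 7.17 and 7.31 in WT mice 1, 3 and 4 (log2 fold change -0.42 ± 0.22, SE, limma adjusted p = 0.273).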
